A study of Homo sapiens with 16 samples.

Results

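The genes described here encode the aminoacyl-tRNA synthetases and the 3 scaffold proteins that hold several of them together. They were taken by symbol from a list of names, and 39 of 39 listed symbols were found among the 57820 genes of the deposited table. Of these, 20 encode cytosolic enzymes, 16 encode mitochondrial enzymes (symbols ending in 2) and 3 encode the scaffold proteins AIMP1, AIMP2 and EEF1E1. All 39 passed the filter on low values, a mean normalised read count of 20 or more, in every fit.

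RNA came from 3 human T-cell acute lymphoblastic leukaemia (T-ALL) cell lines, CUTLL1, KOPTK1 and HPB-ALL (labelled HpbALL), grown in RPMI medium with 10% fetal bovine serum. The long non-coding RNA lnrCXCR4 was targeted either by lentivirus that carried CRISPR components with a guide, or by an antisense oligonucleotide (ASO) added to the medium at 1 uM. Controls received a non-targeting guide or a scrambled ASO. With guides, CUTLL1 and KOPTK1 had 1 control and 2 targeted libraries each, and HPB-ALL had 2 and 2. With ASOs, CUTLL1 and KOPTK1 again had 1 control and 2 targeted libraries each. The labels do not say whether the CRISPR components cut or repress, how long the cells were treated, or whether replicates are separate cultures. Titles number the targeted libraries as guide or ASO 1 and 2 while descriptions call them replicates, so it is not known whether 1 and 2 are different reagents. Each p-value thus reflects a spread between libraries that may hold technical repeats or different reagents. The level of lnrCXCR4 itself was not analysed here, so the labels are not checked by it.

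Each aminoacyl-tRNA synthetase joins an amino acid to its matching transfer RNA and so supplies charged tRNA to the ribosome. Most amino acids have a cytosolic enzyme and a separate mitochondrial enzyme, both made from nuclear genes, while KARS (lysine) and GARS (glycine) encode both forms from a single gene. A group of cytosolic enzymes sits with the scaffold proteins in the multi-synthetase complex. Many cytosolic synthetase genes are known targets of ATF4, the transcription factor made when uncharged tRNA or other stress activates eIF2 kinases, and it binds a composite C/EBP-ATF element in their promoters. MYC, a driver of growth in T-ALL, is also known to raise genes of protein synthesis.

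The element is shown first because the cytosolic enzymes are later split by their known ATF4 response. RefSeq promoter windows (GRCh38.p14, 250 bases before to 50 after the annotated start) were found for 33 of the 39 genes, 45 windows in all since some genes have several starts. No window was found for DARS, LARS, VARS, YARS, AARS2 or VARS2. The search used the 8 letters TGATGNAA on both strands, so TTNCATCA on the other, where N is any base. It matched 8 of the 45 windows (17.8%), against 3.62% of all 35116 windows of the table. Counted by gene, 8 of 33 (24.2%) had a match in any window, against 4.46% of the 27305 genes in the table. All 8 are printed 5′ to 3′ on the strand of the gene, with the matched letters in capitals and 11 bases on either side.
AARS: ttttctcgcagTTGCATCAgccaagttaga
CARS: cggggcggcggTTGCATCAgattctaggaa
GARS: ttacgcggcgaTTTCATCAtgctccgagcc
IARS: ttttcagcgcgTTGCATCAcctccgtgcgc
MARS: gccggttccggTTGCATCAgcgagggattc
NARS: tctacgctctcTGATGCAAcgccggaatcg
TARS: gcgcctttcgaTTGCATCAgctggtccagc
YARS2: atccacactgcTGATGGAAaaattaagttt

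Of these 8 genes, 7 are among the 13 cytosolic genes known to respond to ATF4, of which 10 had a window, so 70% of those 10 held the element. None of the 6 other cytosolic genes with a window (FARSA, FARSB, HARS, KARS, QARS and RARS) or of the 3 scaffold genes did, and 1 of 14 mitochondrial genes did, YARS2. The match read TTGCATCA in AARS, CARS, IARS, MARS and TARS and TGATGCAA, the same letters on the other strand, in NARS, while it read TTTCATCA in GARS and TGATGGAA in YARS2. The printed stretches lie at chr16:70289675-70289704 (minus strand) for AARS, chr11:3057407-3057436 (minus strand) for CARS, chr7:30594834-30594863 (plus strand) for GARS, chr9:92293692-92293721 (minus strand) for IARS, chr12:57488053-57488082 (plus strand) for MARS, chr18:57621804-57621833 (minus strand) for NARS, chr5:33440956-33440985 (plus strand) for TARS and chr12:32756076-32756105 (minus strand) for YARS2. Counted from the annotated start, the first matched base lies at -2 in CARS, -13 in IARS, -4 in MARS, 2 in TARS, 14 in NARS and, from the second listed start, -33 in GARS, but at -187 in AARS and -197 in YARS2. The E-box CACGTG, the letters bound by MYC and related factors and read the same on both strands, was found in 6 of 45 windows (13.3%) against 7.26% of all windows. By gene it was in 5 of 33 (15.2%; IARS, CARS2, EARS2, MARS2 and AIMP2) against 8.77%, and the 2 windows of EARS2 hold the same letters. It shares no bases with the element in IARS. A match describes letters and shows no binding.

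The 15 libraries whose whole reads could be recovered held 34547469 to 72178929 reads, and the values given are normalised read counts as deposited. The 39 genes took 0.569% to 0.626% of these counts in the 6 control libraries and 0.422% to 0.544% in the 10 targeted libraries. Libraries of the same group differed by 2.34 to 6.75 in mean chi-square per gene, where 1 is counting noise, and guide and ASO libraries of the same line and arm by 1.73 to 14.5. Control and targeted libraries of a line lay 168 to 305 apart. The summed level of 8 T-lineage markers was 155760 to 168167 in controls and 55424 to 61067 in targeted libraries, while 4 B-lineage markers summed to 352 to 2667 and 151 to 573. Sums stayed between 0 and 36.7 for the myeloid and erythroid markers in every library (4 and 3 genes, with 0 and 2 of them at 0 in all controls). The 4 epithelial markers summed to 5.22 to 243 in controls and 0 to 23.9 in targeted libraries. The part of these shifts in the results below was not tested, and in bulk RNA fewer cells of a type cannot be told from less RNA per cell.

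In control cells the cytosolic enzymes stood above the mitochondrial ones. Levels between genes are compared as normalised reads per kilobase of transcript. The median of the 20 cytosolic enzymes was 4.13 to 5.39 times that of the 16 mitochondrial enzymes across the 6 control libraries (median 4.34, SD 0.56). CUTLL1 had both highest ratios, 5.39 and 5.204, and KOPTK1 (4.14 and 4.28) and HPB-ALL (4.13 and 4.41) overlapped.

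KARS, which charges lysine in both compartments, had the highest level per kilobase, 8591 ± 164 in CUTLL1, 7708 ± 174 in KOPTK1 and 7838 ± 9.93 in HPB-ALL (SD, n = 2 each). GARS, the glycine enzyme that also serves both, came next by the mean over the lines, with 6607 ± 65.3 in CUTLL1, 7506 ± 93.6 in KOPTK1 and 6809.6 ± 1.44 in HPB-ALL (SD, n = 2 each), although IARS (6862 ± 56.9) lay within error of it in HPB-ALL. These single genes supply the cytosol and the mitochondria together. The methionine enzyme MARS, the serine enzyme SARS and the catalytic subunit of the phenylalanine enzyme, FARSA, followed with means over the lines of 5496, 5392 and 5335 per kilobase. The order of these 3 differed between lines, so they are not ranked among themselves.

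At the low end stood the mitochondrial enzymes for tryptophan (WARS2, 325 per kilobase), proline (PARS2, 267) and serine (SARS2, 126). Of the exonic bases of SARS2, 67.4% also lie in exons of another gene on the same strand in GENCODE 29. EEF1G, an elongation factor gene that every cell uses, shares 99.9% of its exonic bases in this way and was listed at 0 to 1.15 in all 16 libraries. EEF1E1 shares 26.9% with a read-through gene, and for the other 37 members this share was 0%. The treatment of such reads by the authors' counting is not given in the sources used here.

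Among mitochondrial enzymes the isoleucine enzyme, IARS2, was highest, at 2319.97 ± 6.99 in CUTLL1, 2037 ± 7.2 in KOPTK1 and 2007 ± 25.4 in HPB-ALL (SD, n = 2 each) per kilobase, within the range of the lower cytosolic enzymes. For 15 pairs of a cytosolic gene and the mitochondrial gene for the same amino acid, with FARSA and FARSB each set against FARS2, the cytosolic level was higher in 14. The ratio ran from 2.24 for isoleucine to 42.8 for serine, the latter resting on SARS2. The exception was cysteine, where CARS was at 0.752 times the level of CARS2. CARS2 also has a known role in the making of cysteine persulfides, and any link of this role to its level was not tested.

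**Figure D1:**
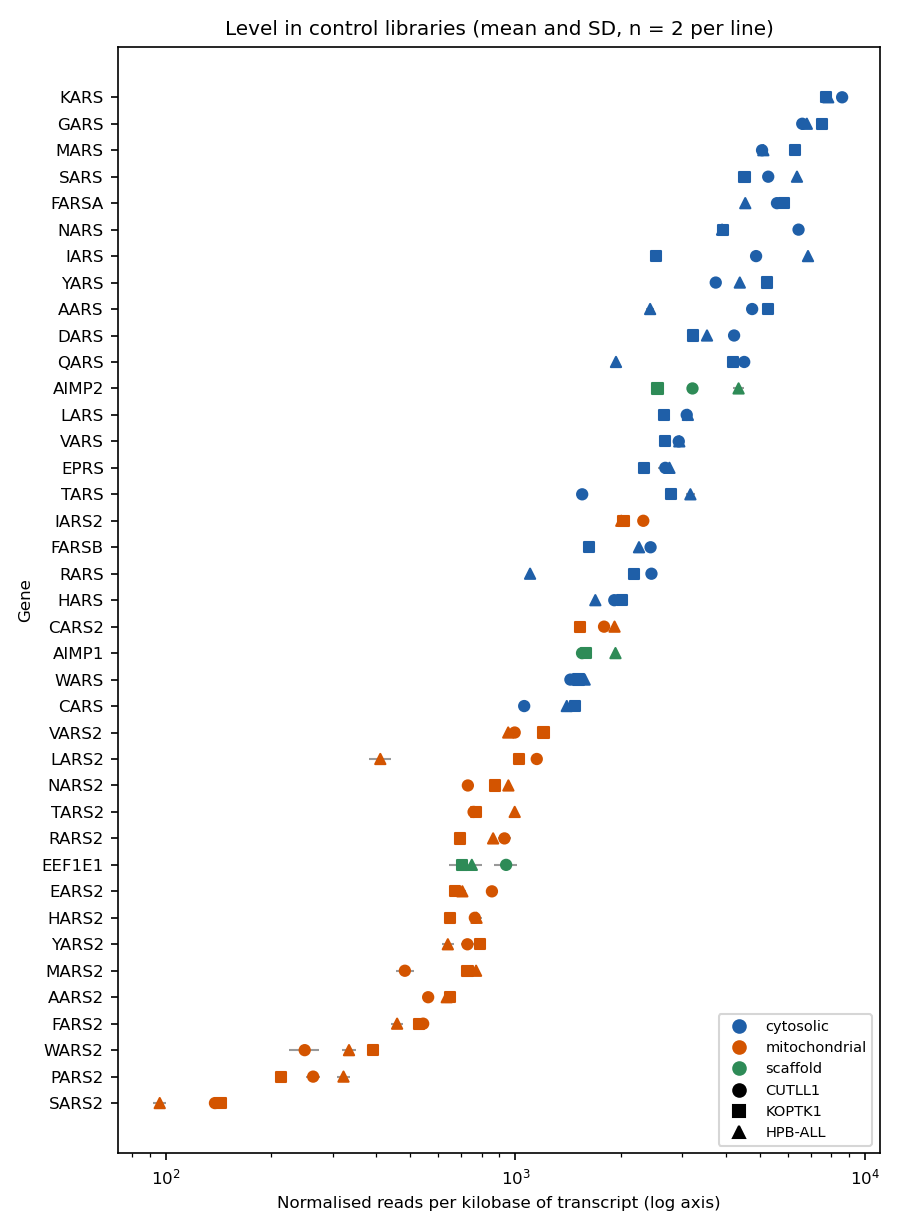
Normalised reads per kilobase of transcript (horizontal log axis) of the 39 genes in control libraries, 1 row per gene, with 1 symbol per line for the mean of 2 libraries and grey bars for the SD. Cytosolic genes (blue) lie mostly above mitochondrial genes (orange), from KARS at the top to SARS2 at the bottom, and LARS2, QARS, RARS and AARS show the HPB-ALL triangle set apart to the left.

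The control libraries also show how the lines differ before targeting. Of the 39 genes, limma called 34 between KOPTK1 and CUTLL1 (14 higher in KOPTK1, 20 lower), against 76.1% of all genes tested (38.3% higher, 37.8% lower). It called 32 between HPB-ALL and CUTLL1 (15 higher, 17 lower; of all genes 79.4%, with 40.1% higher and 39.3% lower) and 30 between HPB-ALL and KOPTK1 (16 higher, 14 lower; of all genes 79.5%, with 39.7% higher and 39.9% lower). In the comparisons with HPB-ALL the members' shares lie near these backgrounds. Between KOPTK1 and CUTLL1, 87.2% of members were called and 51.3% were lower, both above the shares of all genes. A difference between lines is the usual state of a gene here. The 3 comparisons share their controls.

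IARS, the cytosolic isoleucine enzyme, separated all 3 lines. It read 22859 and 22539 for the CUTLL1 controls, 11852 and 11607 for KOPTK1 and 32138 and 31764 for HPB-ALL. HPB-ALL was highest, KOPTK1 lowest, and no line overlapped another. The difference of HPB-ALL minus KOPTK1 was 1.45 (SE 0.023, adjusted p 5.09e-09) on the log2 scale, and that of KOPTK1 minus CUTLL1 was -0.95 (SE 0.023, adjusted p 5.43e-08).

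TARS, the threonine enzyme, read 6747 and 6639.7 for the CUTLL1 controls, 11820.5 and 12158 for KOPTK1 and 13347 and 13949 for HPB-ALL. Here CUTLL1 was the low line, with 0.84 (SE 0.03, adjusted p 2.93e-07) for KOPTK1 minus CUTLL1. NARS, the asparagine enzyme, read 19960.5 and 20002 for the CUTLL1 controls, 11982 and 12277 for KOPTK1 and 11995 and 12159 for HPB-ALL, and CUTLL1 was the high line. KOPTK1 minus CUTLL1 was -0.72 (SE 0.023, adjusted p 1.87e-07) for NARS, while HPB-ALL and KOPTK1 did not pass (-0.0062, adjusted p 0.815).

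Among the genes picked for the largest differences, 4 enzymes were low in HPB-ALL. Other enzymes were also lower there, such as FARSA, with 8282 and 8190 against 10076 to 10682 in the other lines. LARS2, the mitochondrial leucine enzyme, read 5485 and 5431 for the CUTLL1 controls, 4959.9 and 4729 for KOPTK1 and 2047 and 1849 for HPB-ALL. QARS, the glutamine enzyme, read 12679 and 12813 for the CUTLL1 controls, 12175 and 11542 for KOPTK1 and 5483 and 5476 for HPB-ALL. In both, the HPB-ALL libraries lay below every library of the other lines. Against CUTLL1 the log2 difference was -1.49 (SE 0.05, adjusted p 1.45e-07) for LARS2 and -1.22 (SE 0.03, adjusted p 3.47e-08) for QARS, and against KOPTK1 it was -1.32 and -1.11.

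RARS, the arginine enzyme of the complex, read 5280.4 and 5227 for the CUTLL1 controls, 4723 and 4643 for KOPTK1 and 2383 and 2343 for HPB-ALL. Its difference of HPB-ALL minus CUTLL1 was -1.15 (SE 0.026, adjusted p 2.62e-08). AARS, the alanine enzyme, read 16544 and 16492 for the CUTLL1 controls, 18580.3 and 18072 for KOPTK1 and 8582 and 8294 for HPB-ALL. HPB-ALL thus held less AARS RNA than either other line, with -1.12 (SE 0.027, adjusted p 2.7e-08) against KOPTK1.

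Of the complex enzymes, 7 of 8 were lower in KOPTK1 than in CUTLL1 and 1, MARS, was higher, beside 37.8% of all genes lower. Between KOPTK1 and CUTLL1, FARSA, HARS, QARS, WARS and LARS2 each lost its call when any of 2 to 5 libraries was left out, with values of 0.041 to 0.085 where KOPTK1 was higher and -0.18 to -0.066 where it was lower.

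With guides, most of these genes were lower than in controls. With 10 guide libraries in the fit and line as a term, 24 of 39 fell, 6 rose and 9 did not pass, against 35% of all genes lower and 32.7% higher. The median log2 fold change was -0.34, against -0.027 for all genes tested. Fitted by line, the median of the 39 was -0.088 in CUTLL1, -0.16 in KOPTK1 and -0.45 in HPB-ALL. The pooled value thus does not describe each line. VARS, LARS and FARSA fell most, and QARS, RARS2 and SARS rose most among the calls.

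Of 20 cytosolic enzymes, 13 fell and 3 rose (65% and 15%, beside 35% and 32.7% of all genes; median -0.22). VARS, the valine enzyme, read 12624 in the CUTLL1 guide control against 6807 and 6793 with guides, 11658 against 5052 and 4939 in KOPTK1, and 12793 and 12565 against 4104 and 3872 in HPB-ALL. Every targeted library lay under every control, and the HPB-ALL pair lay lowest. The log2 fold change of VARS was -1.32 (SE 0.11, adjusted p 4.6e-06), the largest in size of the 39.

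LARS, the leucine enzyme of the complex, read 14768 in the CUTLL1 guide control against 8867 and 9196 with guides, 12753 against 6717 and 6923 in KOPTK1, and 14610.2 and 15044 against 7014 and 6977 in HPB-ALL. Controls and targeted libraries did not overlap, within a line or across lines. For LARS the log2 fold change came to -0.93 (SE 0.058, adjusted p 7.53e-07). FARSA, a subunit of the phenylalanine enzyme, read 10221 in the CUTLL1 guide control against 5515 and 5455 with guides, 10682 against 6216 and 5889 in KOPTK1, and 8282 and 8190.2 against 4880.3 and 4725 in HPB-ALL. All targeted libraries again lay below all controls, with -0.82 (SE 0.034, adjusted p 7.9e-08).

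The partner subunit of the phenylalanine enzyme behaved otherwise. FARSB read 8413 in the CUTLL1 guide control against 8284 and 8419.5 with guides, 5577 against 5675 and 5580.1 in KOPTK1, and 7663 and 7533 against 5418 and 5528 in HPB-ALL. Its targeted libraries lay on both sides of the control in CUTLL1, just above it in KOPTK1, and below both controls in HPB-ALL. FARSB passed narrowly with -0.20 (SE 0.081, adjusted p 0.0497), and the call ended when any of 8 libraries was left out (the 4 of HPB-ALL and the 4 targeted ones of CUTLL1 and KOPTK1; -0.22 to -0.15, adjusted p 0.0505 to 0.13).

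Other cytosolic falls were in IARS (-0.75), the tyrosine enzyme YARS (-0.61), MARS (-0.56), KARS (-0.43) and NARS (-0.35). EPRS, the fused glutamate and proline enzyme, TARS and CARS fell less (-0.23, -0.21 and -0.18). The calls of EPRS and CARS ended without any 1 of the 4 HPB-ALL libraries (EPRS -0.20 to -0.18, adjusted p 0.0546 to 0.0572; CARS -0.16 to -0.13, adjusted p 0.068 to 0.0797).

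Among cytosolic enzymes 3 went the other way. QARS, which charges glutamine, read 12679 in the CUTLL1 guide control against 15940.1 and 15951 with guides, 12175 against 14619.7 and 14342 in KOPTK1, and 5483 and 5476 against 7898 and 7596 in HPB-ALL. All 6 targeted libraries exceeded the control of their line, and the log2 fold change was 0.38 (SE 0.044, adjusted p 4.05e-05). HARS, the histidine enzyme, rose by 0.16 (SE 0.046, adjusted p 0.012).

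SARS, the serine enzyme, read 9839 in the CUTLL1 guide control against 12052 and 11886 with guides, 8459.95 against 11009 and 10325 in KOPTK1, and 11658 and 11979.6 against 11766 and 11377 in HPB-ALL. The targeted libraries were above the control in CUTLL1 and KOPTK1 and overlapped the controls in HPB-ALL. SARS had 0.16 (SE 0.063, adjusted p 0.0422), and the call ended without any 1 of the 6 guide libraries of CUTLL1 and KOPTK1 (0.095 to 0.16, adjusted p 0.07 to 0.218). The 4 cytosolic enzymes that did not pass with guides were AARS (-0.0081, adjusted p 0.943), GARS (-0.17, adjusted p 0.0788), RARS (0.09, adjusted p 0.138) and the tryptophan enzyme WARS (-0.10, adjusted p 0.0608).

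DARS, the aspartate enzyme of the complex, is a neighbour of CXCR4 in the genome. It read 10062 in the CUTLL1 guide control against 7450.2 and 7401 with guides, 7593 against 5199.6 and 5193 in KOPTK1, and 8238 and 8426 against 5396 and 5363 in HPB-ALL. With ASOs it read 9856 in the CUTLL1 ASO control against 7179 and 7291 with ASOs, and 7609 against 5049 and 4948 in KOPTK1. All targeted libraries lay below all controls, with guides and with ASOs. The log2 fold change was -0.55 (SE 0.037, adjusted p 1.14e-06) with guides and -0.53 (SE 0.043, adjusted p 8.77e-05) with ASOs. Of 8 other genes around DARS that could be tested, 5 rose and 1, LCT, fell in each comparison. Of all genes, 32.7% rose and 35% fell with guides, and 31.8% and 33.2% with ASOs. The guide call of CXCR4 ended without any KOPTK1 guide-arm library (0.069 to 0.16, adjusted p 0.0525 to 0.116), and the ASO call of LCT without any KOPTK1 ASO-arm library (-0.66 to -0.31, adjusted p 0.0512 to 0.138). In GENCODE 29, 4.83% of the exonic bases of DARS overlap a gene on the opposite strand, and whether strand was used in counting is not given in the sources used here.

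All 3 scaffold genes fell with guides ( median -0.62). EEF1E1, the smallest scaffold protein of the complex, read 959 in the CUTLL1 guide control against 641 and 613 with guides, 715 against 484 and 516 in KOPTK1, and 766 and 849 against 365 and 364 in HPB-ALL. AIMP2, its core scaffold, read 4010.1 in the CUTLL1 guide control against 2809 and 2762 with guides, 3180.3 against 2333 and 2351 in KOPTK1, and 5458 and 5186 against 3050.1 and 3014 in HPB-ALL. AIMP1, the scaffold next to the arginine enzyme, read 3839 in the CUTLL1 guide control against 2579 and 2649 with guides, 3973 against 3232 and 3134 in KOPTK1, and 4878 and 4854 against 3328 and 3572 in HPB-ALL. Each targeted library lay below the controls of its line in all 3 genes. The log2 fold changes were -0.81 (SE 0.11, adjusted p 0.00011) for EEF1E1, -0.62 (SE 0.062, adjusted p 1.46e-05) for AIMP2 and -0.46 (SE 0.045, adjusted p 1.29e-05) for AIMP1. Among the 8 enzymes held by these proteins 6 fell, QARS rose and RARS did not pass (median -0.49). The 12 cytosolic enzymes outside the complex included 7 that fell and 2 that rose, HARS and SARS. The shares over all genes were 35% lower and 32.7% higher.

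Mitochondrial enzymes moved in both directions with guides, with 8 of 16 falling and 3 rising (median -0.20). Beside 35% and 32.7% of all genes, these are 50% and 18.75%. YARS2, for tyrosine, read 1592 in the CUTLL1 guide control against 919 and 857 with guides, 1711 against 1107 and 1016 in KOPTK1, and 1321 and 1397 against 941 and 912 in HPB-ALL. FARS2, for phenylalanine, read 923 in the CUTLL1 guide control against 637 and 660.3 with guides, 897 against 491 and 479 in KOPTK1, and 753 and 799 against 545 and 491 in HPB-ALL. Both lay below the controls in every targeted library. Their log2 fold changes were -0.67 (SE 0.062, adjusted p 7.95e-06) and -0.65 (SE 0.074, adjusted p 3.5e-05). CARS2 (-0.59), EARS2 for glutamate (-0.50), VARS2 (-0.49), SARS2 (-0.46), LARS2 (-0.37) and TARS2 (-0.34) fell as well. The SARS2 call ended with quantile scaling (-0.12, adjusted p 0.369).

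RARS2, the mitochondrial arginine enzyme, read 1741 in the CUTLL1 guide control against 1907 and 1965 with guides, 1256 against 1509.9 and 1376 in KOPTK1, and 1563 and 1575 against 1901 and 1988 in HPB-ALL. Its targeted libraries exceeded the control of their line in 6 of 6 cases, with 0.23 (SE 0.047, adjusted p 0.00155). HARS2 rose by 0.12 (adjusted p 0.0225) and IARS2 by 0.10 (adjusted p 0.0316). HARS2 lost its call without the CUTLL1 control, CUTLL1 guide 1, HPB-ALL control 2 or either HPB-ALL guide library (0.10 to 0.12, adjusted p 0.0501 to 0.0653). IARS2 lost it without CUTLL1 guide 2, any KOPTK1 library, either HPB-ALL control or HPB-ALL guide 2 (0.063 to 0.10, adjusted p 0.0517 to 0.138). HARS and HARS2 lie head to head and their promoter windows overlap. AARS2, MARS2, NARS2, PARS2 and WARS2 did not pass (-0.059 to 0.051).

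**Figure D2:**
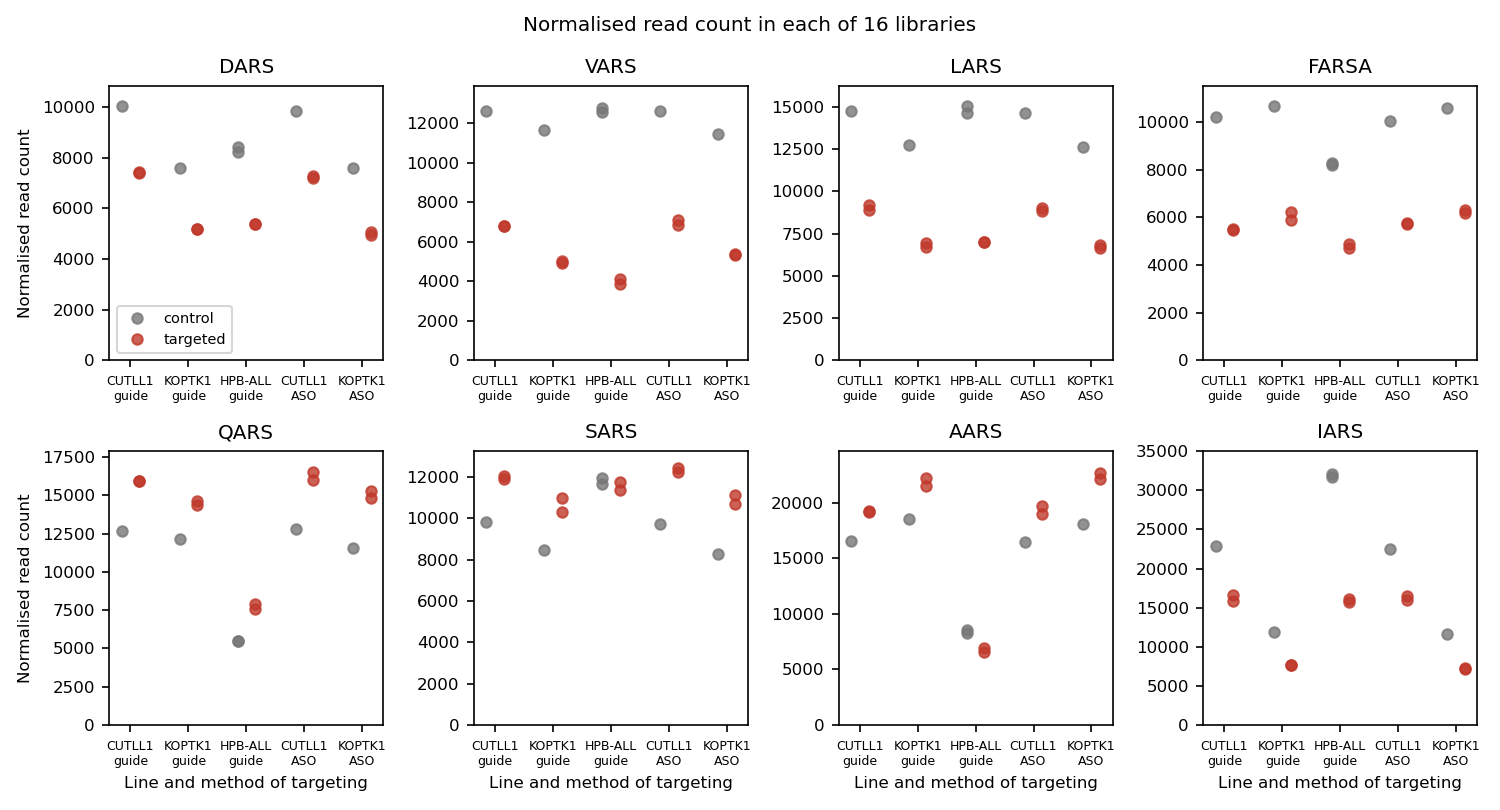
Normalised read count (vertical axis, from 0) of 8 genes in each of the 16 libraries, by line and method of targeting, with grey points for controls and red points for targeted libraries. DARS, VARS, LARS, FARSA and IARS are lower in every targeted library than in the control of its line, QARS is higher, and AARS and SARS are higher in CUTLL1 and KOPTK1 but not in HPB-ALL.

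ASOs gave the same order at the top. In the 6 ASO libraries 20 of 39 fell, 6 rose and 13 did not pass, against 33.2% of all genes lower and 31.8% higher. The median was -0.23, against -0.015 for all genes. VARS read 12647 in the CUTLL1 ASO control against 6878 and 7128 with ASOs, and 11472 against 5372 and 5347 in KOPTK1. LARS read 14667 in the CUTLL1 ASO control against 9003 and 8855 with ASOs, and 12622 against 6638 and 6812 in KOPTK1. FARSA read 10076 in the CUTLL1 ASO control against 5767 and 5743 with ASOs, and 10612 against 6311 and 6206 in KOPTK1. In all 3 the 4 targeted libraries lay under both controls. The log2 fold changes were -0.98 (SE 0.057, adjusted p 2.57e-05), -0.81 (SE 0.048, adjusted p 2.64e-05) and -0.78 (SE 0.03, adjusted p 8.62e-06). EEF1E1 followed closely (-0.78), and the 3 scaffold genes fell together again (median -0.53).

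Among rising genes SARS was first with ASOs. SARS read 9721 in the CUTLL1 ASO control against 12252 and 12431 with ASOs, and 8263 against 11154 and 10694 in KOPTK1. QARS read 12813 in the CUTLL1 ASO control against 15993 and 16506 with ASOs, and 11542 against 15289.8 and 14835 in KOPTK1. AARS read 16492 in the CUTLL1 ASO control against 19048 and 19706 with ASOs, and 18072 against 22712 and 22175 in KOPTK1. Each of these was higher in 4 of 4 targeted libraries than in the control of its line. The log2 fold changes were 0.37 (SE 0.033, adjusted p 0.000119), 0.36 (SE 0.031, adjusted p 0.000108) and 0.27 (SE 0.034, adjusted p 0.000519). AARS2 (0.19, adjusted p 0.00337), RARS2 (0.18, adjusted p 0.0159) and HARS (0.09, adjusted p 0.0457) rose less.

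By class, 11 of 20 cytosolic enzymes fell and 4 rose with ASOs (median -0.13), and 6 of 16 mitochondrial enzymes fell and 2 rose (median -0.14). Of the 8 complex enzymes 6 fell and QARS rose (median -0.38). Over all genes 33.2% fell and 31.8% rose with ASOs, so the share of mitochondrial falls (37.5%) lay near that of all genes. The weakest calls rested on few libraries. HARS lost its call without any CUTLL1 library or either KOPTK1 ASO library (0.061 to 0.097, adjusted p 0.0712 to 0.137), and RARS2 without any CUTLL1 library (0.12 to 0.17, adjusted p 0.0559 to 0.069). EPRS (-0.14) and TARS (-0.13) lost it without CUTLL1 ASO 1 or any KOPTK1 library (EPRS -0.14 to -0.072, adjusted p 0.0521 to 0.0839; TARS -0.13 to -0.068, adjusted p 0.0627 to 0.11).

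The guide and ASO comparisons use different libraries, and HPB-ALL is in the guide comparison alone. Guide and ASO libraries of the same line and arm lay 1.73 to 14.5 apart in mean chi-square per gene. This range overlaps the 2.34 to 6.75 within groups, and independence of the 2 comparisons was not tested. In both, 20 genes fell, which are 20 of the 24 guide falls and 20 of the 20 ASO falls, and 4 rose in both (HARS, QARS, SARS and RARS2), which are 4 of 6 in either. Over all genes tested in both, 84.5% of guide falls fell with ASOs and 88.6% of ASO falls fell with guides, beside 83.3% and 100% of the members' falls. For rises these shares were 85% and 88.7%, beside 66.7% of the members' in either, so agreement of this kind was the usual state of a called gene. None of the 39 had opposite calls. CARS, FARSB, EARS2 and SARS2 were called as falls with guides and did not pass with ASOs. In CUTLL1, KOPTK1 and HPB-ALL their guide values were -0.014, -0.067 and -0.36 (CARS) and -0.011, 0.013 and -0.47 (FARSB). For EARS2 they were -0.52, -0.096 and -0.75, and for SARS2 0.029, -0.61 and -0.69. With ASOs, EARS2 read 3345 in the CUTLL1 control against 2353 and 2484, and 2598 against 2614 and 2582 in KOPTK1. SARS2 lay below the control of its line in 4 of 4 targeted ASO libraries (pooled -0.34). CARS lay above it in 4 of 4 (0.068) and FARSB in 3 of 4 (0.022). The difference itself, guides minus ASOs in CUTLL1 and KOPTK1, passed in limma for 0% of 14020 genes and so for none of the 39. At an unadjusted p under 0.05 it had 1393 genes (9.94%) and 4 members, AIMP2, EEF1E1, VARS2 and CARS, and no other tool was run on it. Across the 39 the difference ran from -0.14 to 0.22 with a median of -0.023, and its SE from 0.030 to 0.12. The size of difference that could be detected was not computed, so the lack of calls does not show equal effects.

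Each line and method was also fitted as an experiment of its own, in a single fit of 10 group means over 16 libraries. With guides, 8 rose and 18 fell in CUTLL1 (30.8% and 31.5% of all genes), 7 and 20 in KOPTK1 (31% and 33.1%), and 6 and 29 in HPB-ALL (34% and 36.9%). With ASOs, 8 and 19 did in CUTLL1 (30.5% and 31.8%) and 5 and 22 in KOPTK1 (30.6% and 32.8%). The lone controls are assumed to vary like the other groups.

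In all 5 experiments 17 of the 39 genes fell, beside 20.8% of all genes. They were 9 cytosolic enzymes (DARS, FARSA, IARS, KARS, LARS, MARS, NARS, VARS and YARS), 5 mitochondrial ones (CARS2, FARS2, LARS2, VARS2 and YARS2) and the 3 scaffold genes. QARS rose in all 5, as did 19.8% of all genes. PARS2, the mitochondrial proline enzyme, was called in none. The rising counts of 8 in CUTLL1 and 7 in KOPTK1 with guides went to 5 without either CUTLL1 guide library and to 4 without KOPTK1 guide 1.

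**Figure D3:**
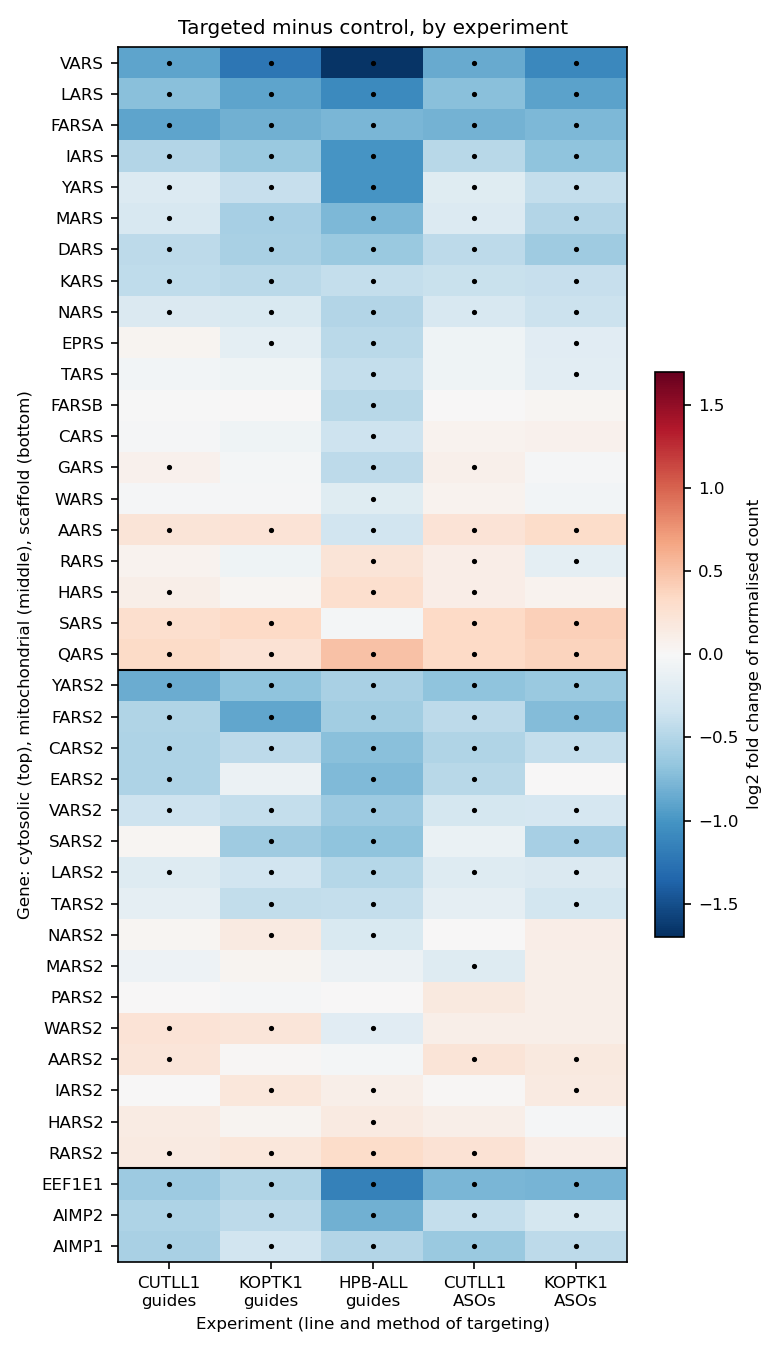
Log2 fold change of targeted against control (colour, blue lower and red higher) for the 39 genes (rows, by class and then by the guide value) in the 5 experiments (columns), with a dot where the adjusted p was under 0.05. VARS in HPB-ALL with guides is the darkest cell (-1.67), QARS is red and dotted in all 5 columns, and PARS2 has no dot.

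Lines differed in how far they responded to guides. By an F test of the guide effect over the 3 lines, 30 of 39 genes differed, against 43.7% of all genes. In 26 of the 30 the HPB-ALL value was below the mean of CUTLL1 and KOPTK1, and in 4 it was above (HARS, QARS, RARS and FARS2). Over all genes tested, 22.3% differed with a lower and 21.4% with a higher HPB-ALL value.

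YARS had the smallest p (F 210, adjusted p 3.05e-07). It read 12159 in the CUTLL1 guide control against 10393 and 10377 with guides, 17003 against 13034 and 12775 in KOPTK1, and 13998 and 14365 against 7179.6 and 7009 in HPB-ALL. All 3 lines fell, and HPB-ALL fell most, with log2 values of -0.23, -0.40 and -0.999 in CUTLL1, KOPTK1 and HPB-ALL. VARS followed (F 119, adjusted p 2.59e-06), with -0.89, -1.22 and -1.67.

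GARS was next (F 104, adjusted p 4.08e-06). It read 17523 in the CUTLL1 guide control against 18241 and 18736 with guides, 19946 against 19679 and 19416 in KOPTK1, and 17939 and 17934 against 13314 and 13158 in HPB-ALL. GARS rose slightly in CUTLL1, did not pass in KOPTK1 and fell in HPB-ALL, with log2 values of 0.077, -0.029 and -0.44. FARSB had the next smallest p (F 79.5, adjusted p 1.12e-05), with -0.011, 0.013 and -0.47.

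AARS crossed zero between lines (F 75.5, adjusted p 1.36e-05). It read 16544 in the CUTLL1 guide control against 19218 and 19264 with guides, 18580.3 against 22202 and 21491 in KOPTK1, and 8582 and 8294 against 6943 and 6581 in HPB-ALL. AARS rose in CUTLL1 (0.22) and KOPTK1 (0.23) and fell in HPB-ALL (-0.32), the line with the lowest control level of this gene. GARS, NARS2 and WARS2 also had opposite calls between lines, of smaller size. The CUTLL1 call of GARS (0.077) ended without any 1 of 7 libraries (0.058 to 0.077, adjusted p 0.0528 to 0.182; CUTLL1 guide 2, both HPB-ALL controls and all 4 targeted ASO libraries). The KOPTK1 call of NARS2 (0.15) ended without KOPTK1 guide 1 (0.090, adjusted p 0.158). WARS2 lost its CUTLL1 call (0.23) without CUTLL1 guide 1 (0.22, adjusted p 0.0524), its KOPTK1 call (0.21) without either KOPTK1 guide library (0.21 each, adjusted p 0.0502 and 0.0559), and its HPB-ALL call (-0.19) without HPB-ALL control 2 or guide 2 (-0.15 each, adjusted p 0.0875 and 0.0813).

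The cytosolic enzymes are given next by their known ATF4 response. All 13 ATF4-responsive genes (AARS, CARS, EPRS, GARS, IARS, LARS, MARS, NARS, SARS, TARS, VARS, WARS and YARS) differed between lines with a lower value in HPB-ALL, by -0.69 to -0.19 relative to the mean of the other lines (median -0.35). Of the 7 other cytosolic genes, DARS and FARSB differed with a lower value in HPB-ALL, HARS, QARS and RARS with a higher one, and FARSA and KARS did not pass (median 0.081, range -0.47 to 0.22). The groups thus overlapped in FARSB, and the difference between the groups was not tested. Among mitochondrial genes 8 of 16 differed with a lower HPB-ALL value and FARS2 with a higher one (median -0.14). Of all genes tested, 22.3% differed with a lower value there and 21.4% with a higher one. All 3 scaffold genes differed with a lower value, EEF1E1 by -0.58, AIMP2 by -0.33 and AIMP1 by -0.060, although AIMP1 in HPB-ALL (-0.50) lay between CUTLL1 (-0.55) and KOPTK1 (-0.32).

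**Figure D4:**
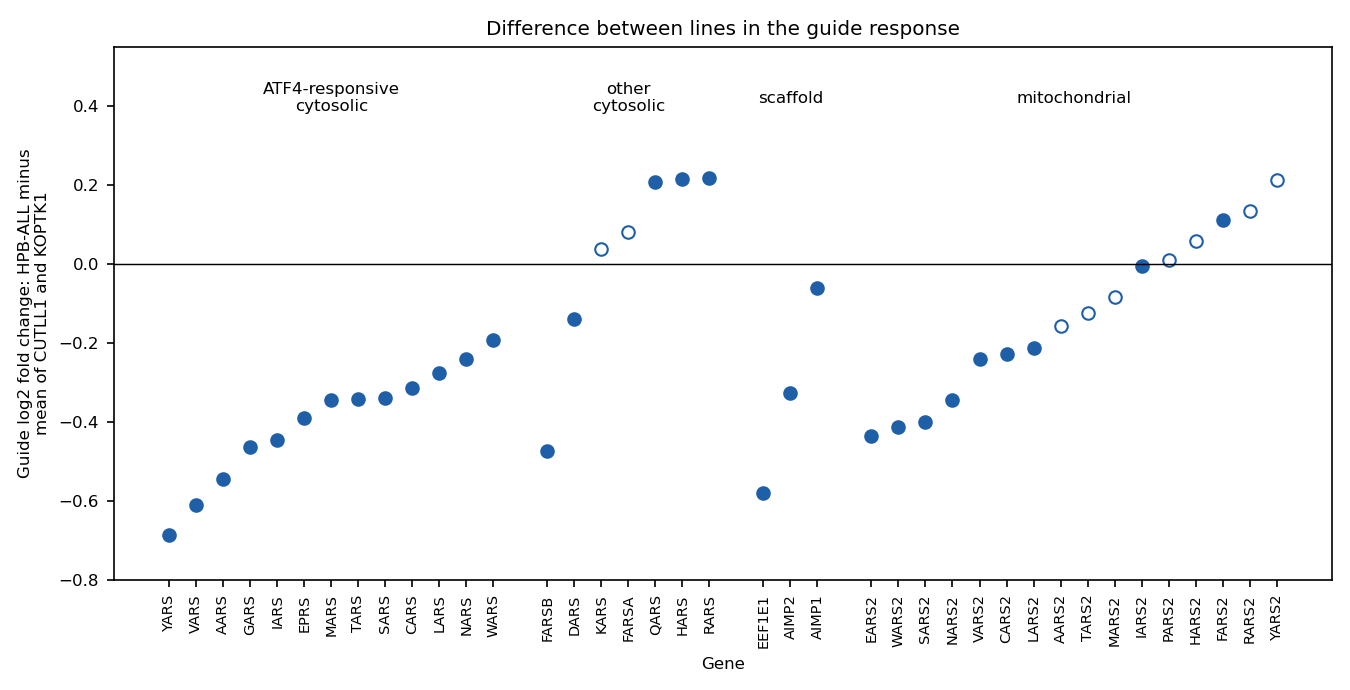
Guide log2 fold change in HPB-ALL minus the mean of CUTLL1 and KOPTK1 (vertical axis, log2 units) for the 39 genes, by group; filled points passed the F test at an adjusted p under 0.05 and open points did not. The 13 ATF4-responsive genes are all filled and below 0, from YARS at -0.69 to WARS at -0.19, while the other cytosolic genes lie on both sides of 0.

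By experiment, the 13 ATF4-responsive genes had medians of -0.047, -0.16 and -0.45 with guides in CUTLL1, KOPTK1 and HPB-ALL. CUTLL1 had 6 falls and 3 rises among them, KOPTK1 had 7 and 2, and HPB-ALL had 12 and 0, where SARS was the gene without a call. The 7 ATF4-responsive genes printed above with the element include genes that fell in all 5 experiments (IARS, MARS and NARS) and AARS, which rose in 4 of 5. With ASOs the medians were -0.072 in CUTLL1 and -0.20 in KOPTK1, near the guide values of the same lines.

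Other genes of the amino acid response showed a like difference between lines. Of 19 that could be tested, 13 fell and 2 (SESN2 and PSPH) rose with guides. With ASOs 11 fell and 3 (the same 2 and MTHFD2) rose. Of all genes, 35% fell and 32.7% rose with guides, and 33.2% and 31.8% with ASOs. The guide call of PSPH ended without the CUTLL1 or KOPTK1 control (0.096 to 0.17, adjusted p 0.0514 to 0.105). Of the guide falls, CHAC1 lost its call without any HPB-ALL library (-0.93 to -0.89, adjusted p 0.0793 to 0.0819) and DDIT4 without CUTLL1 guide 2, any KOPTK1 library, either HPB-ALL control or HPB-ALL guide 1 (-0.14 to -0.064, adjusted p 0.054 to 0.162). Of the ASO falls, DDIT3 lost it without any CUTLL1 library or KOPTK1 ASO 2 (-0.24 to -0.11, adjusted p 0.112 to 0.36). SHMT2 lost it without either CUTLL1 ASO library or any KOPTK1 library (-0.19 to -0.035, adjusted p 0.0548 to 0.431), and CEBPB without CUTLL1 ASO 2 or any KOPTK1 library (-0.23 to -0.18, adjusted p 0.0541 to 0.105). The guide effect differed between lines for 17 of 19, in 15 with a lower HPB-ALL value (median difference -0.52). PYCR1 read 0.77 to 1.32 in HPB-ALL against 1791 and 3994 in the CUTLL1 and KOPTK1 guide controls. Its HPB-ALL value thus lies at the floor and holds little about a response. PSAT1 read 21.9 to 30.8 in HPB-ALL against 4410 and 9043 in those controls. Over all genes tested 43.7% differed, and 22.3% did so with a lower HPB-ALL value. ATF4 itself read 17409 in the CUTLL1 guide control against 14890.2 and 14305 with guides, 23215 against 21824 and 20033 in KOPTK1, and 18252 and 18008 against 11153 and 10662 in HPB-ALL. HPB-ALL was lower by the widest margin, with -0.25, -0.15 and -0.73 in the 3 lines and -0.43 (SE 0.093, adjusted p 0.00238) over them. With ASOs ATF4 was at -0.11, adjusted p 0.0479, a call that ended without any CUTLL1 library or KOPTK1 ASO 2 (-0.11 to -0.065, adjusted p 0.114 to 0.243).

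TRIB3, an ATF4-induced pseudokinase, read 2833 in the CUTLL1 guide control against 858 and 787 with guides, 2109 against 480.3 and 465 in KOPTK1, and 5722 and 5856 against 875 and 892 in HPB-ALL. It fell in each line, with -2.29 (SE 0.13, adjusted p 5.47e-07) over them. ALDH18A1, an enzyme of proline synthesis, and SLC7A5, the transporter of large neutral amino acids such as leucine and valine, fell, with log2 values of -0.65 and -0.67 with guides and -0.51 and -0.45 with ASOs. The serine and folate pathway enzyme MTHFD2 was called up in CUTLL1 (0.19) and KOPTK1 (0.26) and down in HPB-ALL (-0.61), the same signs as AARS.

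In the eIF2 kinase arm, 4 of 8 tested genes rose and 3 fell in each comparison. The shares of all genes were 32.7% and 35% with guides and 31.8% and 33.2% with ASOs. EIF2AK4, the kinase GCN2 that senses uncharged tRNA, fell, with log2 values of -0.46 with guides and -0.49 with ASOs. PPP1R15A and PPP1R15B, the subunits that direct removal of phosphate from eIF2, rose by 0.73 and 0.40 with guides. MYC was at -2.21 (SE 0.13, adjusted p 5.65e-07) with guides and -1.95 (SE 0.18, adjusted p 0.000135) with ASOs.

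Of 11 companions of tRNA charging, 3 rose and 4 fell with guides, shares near those of all genes (32.7% and 35%), and the counts with ASOs were the same. Among the ASO rises the call of SEPSECS ended without any CUTLL1 library (0.12 to 0.23, adjusted p 0.0526 to 0.0967). TARSL2, a second cytosolic threonine enzyme gene, read 396 in the CUTLL1 guide control against 1047 and 1054 with guides, 424 against 1087 and 1129 in KOPTK1, and 704 and 758 against 1945 and 1993 in HPB-ALL. Every targeted library was above the controls of its line, with 1.41 (SE 0.046, adjusted p 2.53e-08), while TARS itself fell. MTFMT, which adds the formyl group to mitochondrial initiator tRNA, was at 0.67 (SE 0.057, adjusted p 5.16e-06) with guides. PET112 and QRSL1, subunits of the enzyme that makes mitochondrial glutaminyl-tRNA in place of a glutamine synthetase, were at -1.16 (SE 0.05, adjusted p 9.46e-08) and -0.82 (SE 0.059, adjusted p 1.91e-06). XPOT, the exporter of tRNA from the nucleus, was at -0.998 (SE 0.081, adjusted p 3.81e-06). The guide effect on TARSL2 and PET112 did not pass for a difference between lines (adjusted p 0.892 and 0.895).

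Downstream of charging, of 4 cytosolic elongation genes tested, EEF1D (0.53), EEF2 (0.49) and EEF1A1 (0.17) rose with guides and EEF1B2 did not pass over the lines (-0.077, adjusted p 0.109), although it fell in CUTLL1 (-0.15, adjusted p 0.0233). All 3 also rose with ASOs (0.57, 0.55 and 0.19), and the EEF1A1 call ended without CUTLL1 ASO 2 or any KOPTK1 library (0.086 to 0.18, adjusted p 0.105 to 0.32). Of 8 mitochondrial translation factors 2 rose and 4 fell with guides, and 0 and 4 with ASOs. For both lists, the shares of all genes were 32.7% higher and 35% lower with guides, and 31.8% and 33.2% with ASOs. Of the guide rises, MTRF1L lost its call without any of 7 libraries (the CUTLL1 control, CUTLL1 guide 2, KOPTK1 guide 1 and the 4 of HPB-ALL; 0.16 to 0.20, adjusted p 0.0752 to 0.123), which leaves 1, MTIF3. MTIF2, an initiation factor, was at -1.03 and -1.18, the recycling factor MRRF at -0.71 and -0.53, and the elongation factor TUFM at -0.24 and -0.16.

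The balance of the 2 enzyme classes in a library depended on how it was summarised. The ratio of the cytosolic to the mitochondrial median was 3.31 to 4.71 in the 10 targeted libraries, and in each line every targeted library lay below every control. CUTLL1 went from 5.204 and 5.39 to 4.53 to 4.71, KOPTK1 from 4.14 and 4.28 to 3.31 to 3.70, and HPB-ALL from 4.13 and 4.41 to 3.57 and 3.65. The cytosolic median went from 3948 and 4008 to 3071 to 3127 in CUTLL1 and from 3079.7 and 3195 to 2218 and 2251 in HPB-ALL. The mitochondrial median went from 744 and 759 to 652 to 690 in CUTLL1 and from 746 and 725 to 631 and 607 in HPB-ALL. In KOPTK1 the cytosolic median went from 2978 and 3020 to 2297 to 2402. The KOPTK1 mitochondrial median was 719 and 706 in controls and 650 to 714 in targeted libraries, which overlapped. With sums per kilobase in place of medians, the ratio of CUTLL1 was 5.93 and 6.01 in controls and 5.93 to 6.01 in targeted libraries, which overlapped. The same ratio of sums was 5.86 in both KOPTK1 controls against 5.45 to 5.54, and 5.74 in both HPB-ALL controls against 4.81 and 4.82. Within the 15 amino acid pairs, the guide log2 value was lower in the cytosolic enzyme in 9, and the ASO value in 8, so pair by pair neither class was lower throughout.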

How the data were processed

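RNA-seq of 16 libraries was used as 1 table. The authors deposited a signal per gene, which the name of the table calls normalised counts; how they were normalised is not stated. The submitters' processing notes name STAR 1.4.2, DESeq2 and the build hg19 without their roles, while the counter, annotation and strand setting were not given in the sources used here. In 15 libraries 100% of the values were whole multiples of 1 step (tolerance 1e-06), so whole reads were recovered there; 1 targeted CUTLL1 ASO library had a step too near 1 and was left out of the count tests. Limma 3.58.1 in R 4.3.3 was fitted to log2(value + 1) with a mean-dependent trend, over all genes whose mean in the fitted libraries was at least 20, and p-values were adjusted by Benjamini-Hochberg over all genes tested, with a threshold of 0.05. Log2 fold changes are on this scale and understate changes of low genes. Line was a term in the guide and ASO comparisons.

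The members and lists were chosen with earlier results of these data known. Genes named with all values were DARS, the 3 largest rises and 3 largest falls in each comparison, the 3 largest differences in each pair of control lines and the 4 smallest p of the F test; the scaffold genes, YARS2, FARS2, EIF2AK4, the PPP1R15 genes, MTHFD2, SLC7A5, TUFM and the list genes given in every library were added after their values were seen. Replicate numbers did not pair the libraries: over 15 pairs of groups, correlations of same-numbered deviations ran from -0.014 to 0.065. Alternatives were a pseudocount of 5, filters at 100 or none, quantile scaling, robust moderation, a replicate block, edgeR 4.0.16 and DESeq2 1.42.0 on recovered reads, a term for the kind of control, and leaving out each library. The scripts were tested on simulated data. Lengths come from GENCODE 29 and promoters from RefSeq, and whether the authors used either is not stated.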

Additional observations from a re-analysis of the deposited data

Results flagged for a closer look

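The guide effect differed between the 3 lines for 30 of the 39 genes by limma's F test of the interaction, adjusted over all genes. By the same test 43.7% of all genes differed. The values are the log2 fold change in HPB-ALL minus the mean of CUTLL1 and KOPTK1. Among the ATF4-responsive cytosolic enzymes they were YARS (-0.69), VARS (-0.61), AARS (-0.55), GARS (-0.46), IARS (-0.45), EPRS (-0.39), MARS (-0.35), TARS (-0.34), SARS (-0.34), CARS (-0.31), LARS (-0.28), NARS (-0.24) and WARS (-0.19). The other cytosolic enzymes with a lower value were FARSB (-0.47) and DARS (-0.14), and those with a higher value were HARS (0.21), QARS (0.21) and RARS (0.22).

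Mitochondrial enzymes with a lower value in HPB-ALL were EARS2 (-0.44), WARS2 (-0.41), SARS2 (-0.40), NARS2 (-0.34), VARS2 (-0.24), CARS2 (-0.23), LARS2 (-0.21) and IARS2 (-0.0057), and FARS2 (0.11) had a higher one. In the scaffold genes the values were EEF1E1 (-0.58), AIMP2 (-0.33) and AIMP1 (-0.060). For IARS2 and AIMP1 the HPB-ALL value lay between those of the other lines, so the widest gap there is between CUTLL1 and KOPTK1. The 2 lines with a lone control entered with the spread of the other groups, and HPB-ALL had no ASO libraries in which to repeat the difference.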

How the results depend on the processing

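Of the called members, 23 of 30 with guides and 22 of 26 with ASOs kept their call and direction under every alternative, and 29 of 34, 28 of 32 and 29 of 30 did in the control comparisons (KOPTK1 and HPB-ALL against CUTLL1, HPB-ALL against KOPTK1). The members rising with guides were 3 with no filter on low values, against 6, and those rising with KOPTK1 ASOs were 10 with quantile scaling, against 5. Leaving out 1 library gave 5 to 8 rising members for CUTLL1 guides and 4 to 7 for KOPTK1 guides, 25 to 30 called members with guides, 22 to 28 with ASOs and 26 to 31 in the F test; DARS stayed at -0.60 to -0.53 with guides and -0.61 to -0.45 with ASOs. Signs turned under a setting with guides for AARS (0.0045 by edgeR) and PARS2 (0.22, adjusted p 0.0095, with quantile scaling; 0.011 by edgeR; 0.0069 with the replicate block), with ASOs for WARS (-0.0048 with quantile scaling, -0.0045 by edgeR), and in KOPTK1 minus CUTLL1 controls for FARSA (-0.0011 with quantile scaling), the single called member among them. Leaving out 1 library turned signs of uncalled genes, with ranges for guides of -0.10 to 0.057 (AARS), -0.013 to 0.076 (AARS2), -0.032 to 0.022 (PARS2) and -0.033 to 0.097 (WARS2), and for ASOs of -0.021 to 0.089 (GARS), -0.17 to 0.11 (RARS), -0.049 to 0.059 (WARS), -0.47 to 3.3e-05 (EARS2), -0.017 to 0.093 (HARS2) and -0.22 to 0.096 (MARS2). The cause was not tested. With the replicate block, although the numbers do not pair the libraries, 26 members were called with guides (CARS, FARSB, SARS and IARS2 lost) and 22 with ASOs (EPRS, HARS, TARS and RARS2 lost). Quantile scaling moved the median of all genes from -0.027 to 0.071 with guides. The interaction and single-experiment contrasts of a line have no value without its lone control. The edgeR and DESeq2 fits lacked CUTLL1 ASO 1, and calls that ended there rest on fewer samples.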
